A study of Macaca fascicularis with 2 samples.

Results

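The genes described here are 58 nuclear genes of the mitochondrial respiratory chain, out of 18446 genes in a single-cell count table of the fetal ovary of Macaca fascicularis, the cynomolgus monkey. They were chosen by name alone, as the rows whose symbol starts with NDUF, UQCR or ATP5, or with COX followed by a digit from 4 to 8. By complex they are 5 core subunits, 24 accessory subunits and 8 assembly factors of complex I. The others are 3 subunits of complex III, 8 genes of complex IV and 10 genes of complex V. NDUFA4L2, a relative of a subunit, is counted with complex IV, and ATP5IF1, an inhibitor, with complex V. RefSeq lists 89 protein-coding genes of these families in this species, of which 57 had a row under the same symbol and 32 were not analysed here. All 58 genes together held 1.081% of the 148824177 unique molecular identifiers (UMIs, each 1 captured RNA molecule) in the table.

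The respiratory chain sits in the inner mitochondrial membrane. Complex I takes electrons from NADH, complex III passes them from ubiquinol to cytochrome c, complex IV hands them to oxygen, and complex V, the ATP synthase, uses the resulting proton gradient to make ATP. Most of its subunits are encoded in the nucleus, while 13 are encoded by mitochondrial DNA (mtDNA), and several nuclear subunits exist in a common form and a form known from muscle or testis. Oocytes are rich in mitochondria, which the embryo inherits from the mother.

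The cells came from the ovaries of 1 fetus at embryonic day 84 (E84) and 1 at embryonic day 116 (E116). Both ovaries of a fetus were digested with a tumor dissociation enzyme kit and captured as 1 library with 10x Genomics 3′ chemistry. The 20967 cell barcodes end in 1 (10621 cells) or in 2 (10346 cells), and the table does not tie an ending to a stage, so the cells were pooled into 1 sample and stages were not compared. With no replicate animals no test was possible, and every interval given is an exact 95% interval that covers counting error only.

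Cells were clustered without the 58 genes and named from marker genes, so that each name ends in "-like". Among 6098 germ cell-like cells, 249 were mitotic-like (markers such as NANOG and TFAP2C), 1480 were like cells that respond to retinoic acid before meiosis (RA-responsive-like, markers such as STRA8 and REC8), 1599 were meiotic-like (SYCP1, DMC1), 318 were oogenesis-like (GDF9, FIGLA) and 2452 had no step name. The 13194 somatic cells were 5680 granulosa-like, 4571 stroma-like, 1263 ovarian surface epithelium-like, 747 erythroid-like, 547 endothelial-like, 247 macrophage-like and 139 pericyte-like cells. The endings were spread unevenly, with 246 of the 249 mitotic-like cells under ending 1 and 305 of the 318 oogenesis-like cells under ending 2, so for these 2 steps the step and the ending cannot be told apart. Both endings shared 27 barcodes. Among the named groups, median depth per cell ran from 2019 UMIs in meiotic-like to 18984 UMIs in oogenesis-like cells, and germ cell-like cells without a step name had a median of 914 UMIs. The granulosa-like cells include 1 cluster of 819 cells that had as many pericyte as granulosa markers and was named by its leading genes.

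Levels are UMIs summed over the cells of a group and scaled to a common total of nuclear-encoded UMIs (CPM). UMIs are counted at the 3′ end of each RNA and do not scale with transcript length. Over all cells, 41 of the 58 genes lay above 100 CPM, 13 between 10 and 100 CPM and 4 under 10 CPM, with a median of 191 CPM. ATP5F1E, the small epsilon subunit of complex V, was the most abundant at 954 CPM. The most abundant members of the other complexes were COX6A1 of complex IV at 542 CPM, NDUFS5 among the accessory subunits of complex I at 449 CPM, UQCRQ of complex III at 229 CPM, NDUFS7 among the core subunits at 194 CPM and NDUFAF3 among the assembly factors at 119 CPM. The 4 genes under 10 CPM were COX6A2, COX6B2 and COX7B2, alternative forms of complex IV subunits, and NDUFA4L2, a hypoxia-induced relative of the complex IV subunit NDUFA4.

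Summed over the 58 genes, the germ cell steps stood above the somatic groups, although under ending 1 granulosa-like cells (13398 CPM) exceeded mitotic-like cells (12851 CPM). The sum was 12865 CPM (12740 to 12991) in mitotic-like cells, 19263 CPM (19185 to 19341) in RA-responsive-like, 15388 CPM (15299 to 15478) in meiotic-like and 15218 CPM (15135 to 15301) in oogenesis-like cells. The last pair of intervals overlap. Granulosa-like cells came next with 12585 CPM (12551 to 12619), followed by ovarian surface epithelium-like cells with 11196 CPM and macrophage-like cells with 10586 CPM. Pericyte-like (9548 CPM), stroma-like (9094 CPM) and endothelial-like cells (9093 CPM) were lower, and the latter pair did not differ beyond counting error. Erythroid-like cells, in which HBB alone took 475888 CPM, were lowest with 1924 CPM.

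**Figure D1:**
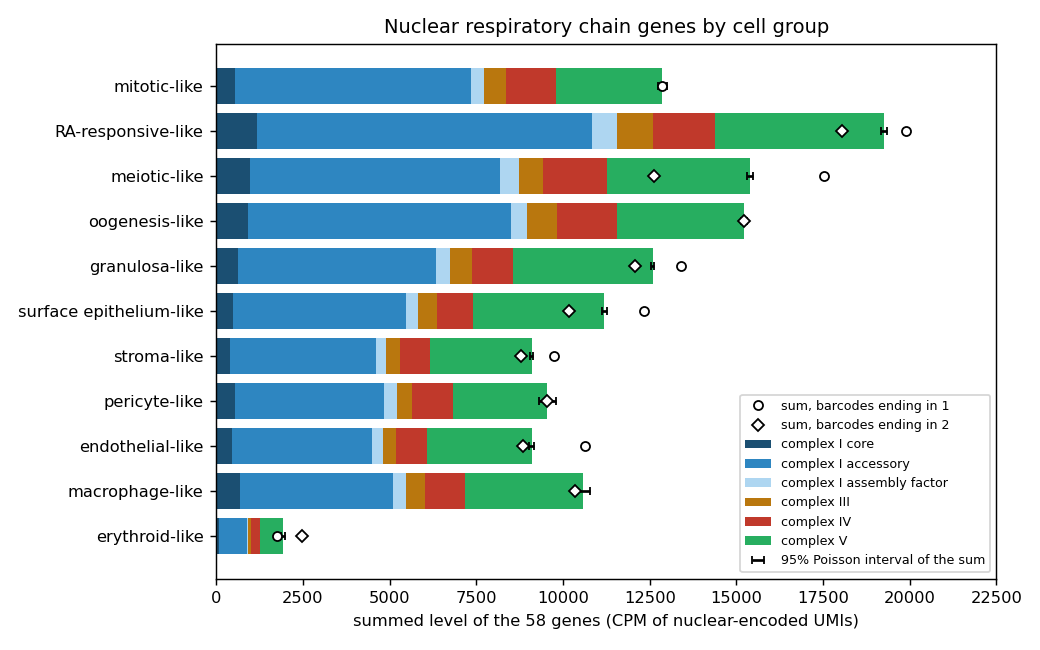
Summed level of the 58 genes in CPM (horizontal axis, from 0) for 11 cell groups (rows), with the bars divided by complex, circles and diamonds for cells under each barcode ending (at least 50 cells) and black caps for the 95% Poisson interval. RA-responsive-like cells have the longest bar at 19263 CPM and erythroid-like cells the shortest at 1924 CPM.

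The spread between clusters of 1 class was larger than counting error. The 5 granulosa-like clusters ran from 11452 to 14548 CPM, a range that holds the mitotic-like level. The highest was also the shallowest, with a median of 2209.5 UMIs per cell against 6462 to 8908 in the others. The 3 RA-responsive-like sub-clusters ran from 18309 to 21677 CPM. Here too the highest was the shallowest, with a median of 2261.5 UMIs against 13338.5 and 13729.5. The part of depth in these ranges was not tested. The 2 meiotic-like sub-clusters differed in depth and level, with 14312 CPM where the median was 12957 UMIs per cell and 18460 CPM where it was 1397 UMIs. In the shallow one HBB stood at 4795 CPM against 1095 CPM in the deep one, and markers of all somatic types summed to 1884 CPM against 858 CPM. Their part in the difference was not tested. Within every one of 6 groups with both endings, namely RA-responsive-like, meiotic-like, granulosa-like, surface epithelium-like, stroma-like and endothelial-like cells, the sum was higher under ending 1, for example 19879 against 18046 CPM in RA-responsive-like and 9736 against 8775 CPM in stroma-like cells. Erythroid-like cells showed the opposite order, 1755 against 2471 CPM.

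Germ cell-like against somatic cells showed higher summed levels for every complex, with the smallest difference for complex V. Complex V, complex IV and the assembly factors each had several genes on either side of equality. The sum of the 58 genes was 16263 CPM in germ cell-like and 10791 CPM in somatic cells, a log2 ratio of 0.59 (0.59 to 0.60). All 58 genes had at least the 20 UMIs asked for in both groups together. Of them 36 were at least 1.5 times higher in germ cell-like cells, where 38.6% of all 16383 genes tested were, and 3 were at least 1.5 times lower, where 29.2% of all genes were. The median log2 ratio of the 58 genes was 0.76 beside 0.20 for all genes. It was 0.67 within ending 1 and 0.68 within ending 2.

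By complex, the median log2 ratio was 0.89 for the core subunits of complex I (4 of 5 at least 1.5 times higher). It was 0.88 for its accessory subunits (18 of 24) and 0.76 for its assembly factors (5 of 8). For complex III it was 0.74 (2 of 3) and for complex IV 0.89 (5 of 8). The 5 include COX6B2, COX6A2 and COX7B2, each under 10 CPM over all cells. Among complex IV genes above 10 CPM, COX6A1 (1.15) and COX7B (0.62) were higher and COX8A (-0.36) and COX7A1 (-0.31) lower. For complex V the median was 0.08, with 2 of 10 genes at least 1.5 times higher and 1 lower. The complex V sum was 4153 CPM in germ cell-like and 3500 CPM in somatic cells, a log2 ratio of 0.25, and its single genes ran from -0.72 for ATP5F1D to 0.87 for ATP5MC3. NDUFV1, the core subunit that binds NADH, stood at 241 CPM (236 to 246) in germ cell-like and 97.6 CPM (95.5 to 99.7) in somatic cells, 2.47-fold higher and with a log2 ratio of 1.34 under each ending. NDUFA1, an accessory subunit of the membrane arm, was 691 against 287 CPM. COX6A1, the common form of subunit 6A, was 884 against 398 CPM. The complex V genes past the fold were ATP5F1E (1292 against 813 CPM) and ATP5MC3, 1 of the genes for the c-ring (621 against 340 CPM). Within ending 2 ATP5F1E had a log2 ratio of 0.51, under the fold.

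Lower in germ cell-like cells were NDUFA4L2 (2.03 against 6.46 CPM), ATP5F1D, the delta subunit of complex V (157 against 258 CPM), and NDUFA11, an accessory subunit of the membrane arm of complex I (218 against 344 CPM). The next lowest ratio was that of COX8A, the common form of the smallest complex IV subunit, with 117 against 150 CPM. ATP5IF1, the inhibitor that keeps complex V from running backwards, was 343 CPM in germ cell-like and 408 CPM in somatic cells. All 5 lay on the lower side under both endings, although NDUFA11 was under the fold within ending 2 (-0.51). With at most 3000 genes per cell ATP5IF1 turned to a log2 ratio of 0.10, and with at most 10% mtDNA-encoded UMIs COX8A turned to 0.089.

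**Figure D2:**
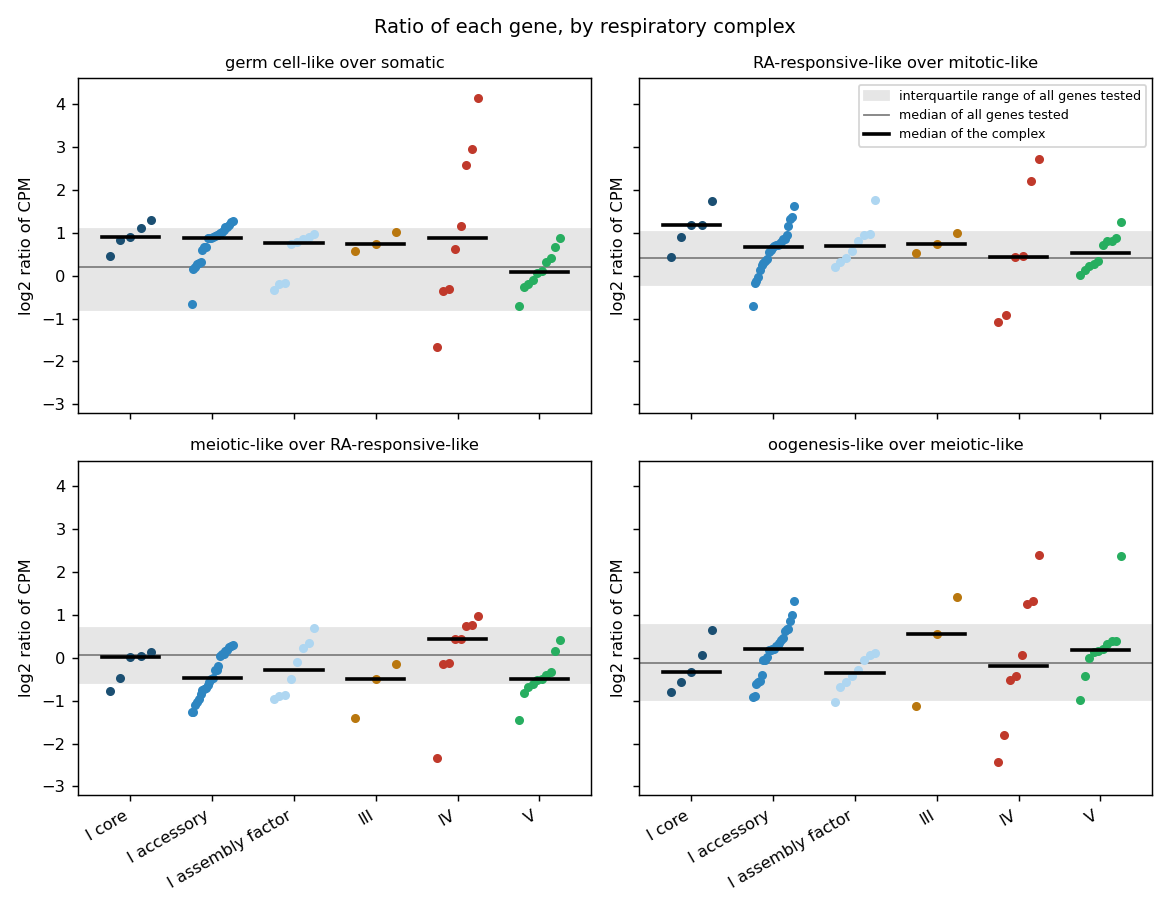
Log2 ratio of CPM (vertical axis) of each gene with at least 20 UMIs, by complex (horizontal axis), for germ cell-like over somatic cells and for each germ cell step over the one before. Points are genes, black bars the median of a complex, the grey line and band the median and interquartile range of all genes tested. In the first panel the complex V median lies at 0.08, below those of the other complexes.

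Of the alternative forms of complex IV subunits, COX6B2, COX6A2 and COX7B2 were rare, and their germ cell-like levels exceeded the somatic ones. COX7A1, the muscle form of subunit 7A, was more abundant and lower in germ cell-like cells, with 45.7 against 56.8 CPM, a direction that turned with at most 3000 genes per cell (log2 ratio 0.24) and as a mean of single cells (0.18). COX6B2, known from testis and sperm, had 191 UMIs in germ cell-like cells (4.97 CPM, 4.29 to 5.73) and 25 UMIs in all somatic cells (0.28 CPM, 0.18 to 0.41), a ratio of 17.8. Its step levels were 7.67 CPM in mitotic-like, 4.05 in RA-responsive-like, 6.79 in meiotic-like and 4.74 in oogenesis-like cells. The log2 ratio was -0.92 (-1.65 to -0.15) for RA-responsive-like over mitotic-like and 0.74 (0.15 to 1.34) for meiotic-like over RA-responsive-like cells, while the interval for oogenesis-like over meiotic-like cells included equality. Pericyte-like and endothelial-like cells had no UMI of COX6B2, which allows up to 4.44 and 0.60 CPM, and erythroid-like cells had none either. Of the 25 somatic UMIs, 16 lay in 1 granulosa-like cluster, at 1.12 CPM. COX6A2, the form of heart and skeletal muscle, had 63 UMIs in germ cell-like (1.64 CPM) and 19 in somatic cells (0.21 CPM). It made up 0.331% (0.216 to 0.484) of the COX6A1 and COX6A2 UMIs in oogenesis-like, 0.137% (0.062 to 0.259) in meiotic-like and 0.036% (0.007 to 0.104) in stroma-like cells. Within ending 2 the oogenesis-like and meiotic-like shares were 0.272% and 0.270%. HBB, an RNA of erythroid cells, was at 31.0 CPM among oogenesis-like cells, and the part of free RNA in these small counts was not tested.

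COX7B2, a testis form of subunit 7B, depended on the barcode ending. RA-responsive-like cells held 8.44 CPM and meiotic-like cells 11.4 CPM, whereas mitotic-like cells held 1.28 CPM and oogenesis-like cells 2.13 CPM. Under ending 1 the RA-responsive-like and meiotic-like levels were 1.12 and 3.86 CPM, and under ending 2 they were 22.9 and 21.1 CPM. As a share of the COX7B and COX7B2 UMIs of RA-responsive-like cells this was 0.170% under ending 1 and 4.16% under ending 2. The RA-responsive-like sub-cluster with 264 of its 266 cells under ending 2 held 25.4 CPM, and the other 2 sub-clusters of that step, nearly all under ending 1, held 1.0 and 1.8 CPM. COX7B itself, the common form, was at 614 CPM in the RA-responsive-like step and 829 CPM in the meiotic-like step.

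NDUFA4L2 was highest in pericyte-like cells, the contractile cells that wrap small vessels. Pericyte-like cells had 161 CPM (133 to 195, 109 UMIs), endothelial-like cells 44.3 CPM (38.7 to 50.5), stroma-like cells 7.00 CPM (5.96 to 8.16) and every other group at most 3.91 CPM. The 3 levels do not overlap. Under ending 2 endothelial-like cells held 49.9 CPM, and under ending 1 they held 7.55 CPM. Pericyte-like cells numbered 130 under ending 2 and 9 under ending 1, so the level under ending 1 was not computed. The 7 pericyte markers in the table summed to 9194 CPM in pericyte-like, 849 CPM in endothelial-like, 739 CPM in stroma-like and 1087 CPM in granulosa-like cells, and their part in the endothelial-like level was not tested.

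**Figure D3:**
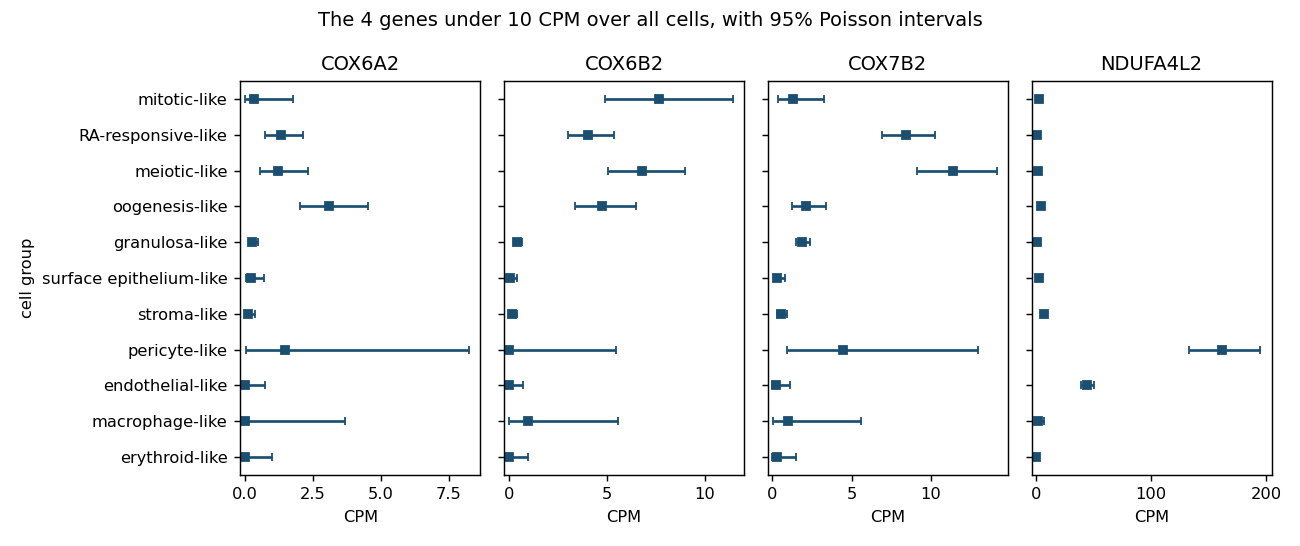
CPM (horizontal axis, a separate scale for each gene) with 95% Poisson intervals in 11 cell groups (rows) for the 4 genes under 10 CPM over all cells. COX6B2 is at 4.05 to 7.67 CPM in the germ cell steps and at most 1.00 CPM elsewhere, while NDUFA4L2 reaches 161 CPM in pericyte-like cells.

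Between mitotic-like and RA-responsive-like cells the genes were higher in the latter. The log2 ratio of the sums was 0.58 (0.57 to 0.60), and 0.63 within ending 1. Of 56 genes with enough UMIs, 31 were at least 1.5 times higher, where 41.8% of all 12396 genes tested were, and 3 were at least 1.5 times lower, where 16.1% were. The median log2 ratio was 0.71 for these 56 genes and 0.40 for all genes. Ribosomal protein genes moved the other way in this comparison, from 229757 to 118642 CPM for the 49 measured. With their UMIs left out of the total the median of all genes became 0.21, that of the respiratory chain genes 0.51, and 23 genes were at least 1.5 times higher, where 33.3% of all genes then were. On the lower side 3 genes were past the fold, where 20.3% of all genes were.

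The core subunits of complex I had the largest median log2 ratio of any complex here, 1.18, with 4 of 5 past the fold. NDUFV1 went from a mitotic-like level of 88.2 CPM (78.1 to 99.2) to 293 CPM (283 to 303). NDUFAF3, an assembly factor of the arm that takes up electrons, went from 78.3 to 265 CPM, a ratio of 3.38. NDUFB6, an accessory subunit of the membrane arm, went from 170 to 520 CPM. COX7A1 went from 10.2 CPM (7.0 to 14.4, 32 UMIs) to 47.5 CPM (43.7 to 51.5). COX7B2 had the largest ratio but rested on 4 UMIs in mitotic-like cells, and within ending 1, which holds nearly all mitotic-like cells, its mitotic-like level was 1.30 CPM against 1.12 CPM for the RA-responsive-like step.

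The 3 genes past the fold on the lower side were COX8A, from 247 CPM (230 to 265) to 118 CPM (112 to 124), COX6B2, and NDUFA11, from 245 to 151 CPM. NDUFS6, an accessory subunit of complex I, came next from below with 421 and 372 CPM. Over all cells complex IV was thus split, with 2 of its 6 tested genes past the fold in each direction. Within ending 1, where COX7B2 had too few UMIs to be tested, 1 of 5 genes was higher and 2 were lower. ATP5F1D, at 140 and 141 CPM, did not differ beyond counting error.

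Between RA-responsive-like and meiotic-like cells the order turned. The log2 ratio of the sums was -0.32 (-0.33 to -0.31), -0.18 within ending 1 and -0.51 within ending 2. At least 1.5 times lower were 20 of the 58 genes, where 25.1% of all 12997 genes tested were, and 4 were at least 1.5 times higher, where 28.8% were. The median log2 ratio was -0.37 for these genes and 0.06 for all genes. By complex it was -0.48 for the accessory subunits of complex I (10 of 24 at least 1.5 times lower), -0.49 for complex III (1 of 3) and -0.50 for complex V (4 of 10). It was 0.03 for the core subunits of complex I, of which 1 of 5 was past the fold. For complex IV it was 0.43, with 1 of 8 genes lower and 3 higher. Within ending 1 the complex IV median was 0.69, with 4 of 6 tested genes higher and 1 lower. Within ending 2 it was -0.02, with 1 of 6 higher and 1 lower. The log2 ratio of the complex IV sums was 0.05. The core subunit median was 0.11 within ending 1 and -0.52 within ending 2. Medians of the accessory subunits, complex III and complex V were negative under both endings.

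COX8A showed the lowest ratio of all 58 genes. Its meiotic-like level was 23.4 CPM (20.0 to 27.1), 5.04-fold below the RA-responsive-like level of 118 CPM. It was lower under both endings, at 31.1 against 135 CPM under ending 1 and 13.4 against 83.0 CPM under ending 2. The meiotic-like level was the lowest of all 11 groups, erythroid-like cells at 38.5 CPM included. It was 17.1 CPM in the deep meiotic-like sub-cluster and 41.4 CPM in the shallow one described above.

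ATP5F1D and UQCRC1, a core protein of complex III, were low in the same cells. ATP5F1D was at 51.9 CPM (46.8 to 57.4) in the meiotic-like step after 141 CPM (134 to 148) in the step before, and UQCRC1 was at 117 CPM (109 to 125) after 307 CPM (298 to 317). Both were lower under each ending, with log2 ratios of -1.19 and -1.85 for ATP5F1D and -1.37 and -1.47 for UQCRC1. NDUFA13, an accessory subunit of complex I also known as GRIM-19, was 611 against 253 CPM. NDUFC1, a small membrane-arm subunit, was 728 against 447 CPM, and within ending 1 its log2 ratio of -0.51 was under the fold. ATP5F1B, the catalytic beta subunit of complex V, was 153 against 86.3 CPM.

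The 4 genes past the fold on the higher side were COX7A1 with 80.2 CPM (73.8 to 86.9) against 47.5 CPM, COX6B2, NDUFAF1, an assembly factor of the membrane arm, with 62.1 against 38.1 CPM, and NDUFA4L2, which had 12 and 10 UMIs and an interval that includes equality. Within ending 2 COX7A1 and NDUFAF1 were under the fold, each with a log2 ratio of 0.49. NDUFV1 stayed within counting error overall (304 against 293 CPM). It was higher under ending 1, with a log2 ratio of 0.41, and lower under ending 2, with a log2 ratio of -0.52.

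Between meiotic-like and oogenesis-like cells the sum of the genes changed little, while some single genes changed several-fold. The share of these genes past the fold was below that of all genes in both directions. The log2 ratio of the sums was -0.02 (-0.028 to -0.005). Its direction was not stable: within ending 2, which holds 305 of the 318 oogenesis-like cells, it was 0.27, and it was 0.09 without the shallow meiotic-like sub-cluster. At least 1.5 times higher were 12 of 58 genes, where 29.4% of all 12903 genes tested were, and 10 were at least 1.5 times lower, where 35.6% were. When all UMIs, mtDNA-encoded ones included, were the total, the split was 8 higher and 15 lower, where 27.2% and 38.3% of all genes were. The median log2 ratio was 0.10 for these genes and -0.13 for all genes.

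The 3 genes that were lowest in meiotic-like against RA-responsive-like cells were higher again. COX8A was 124 CPM (117 to 132) in oogenesis-like cells, 5.31-fold above the meiotic-like level. ATP5F1D was 268 CPM (257 to 280), 5.17-fold above it and also above the RA-responsive-like level. UQCRC1 was 314 CPM (302 to 326), 2.69-fold above it. Within ending 2 alone the log2 ratios were 3.23, 3.02 and 1.41. NDUFA11 was 318 against 160 CPM and COX6A2 3.08 against 1.22 CPM, the latter from 26 and 9 UMIs. Within ending 2 COX6A2 was 2.54 against 2.18 CPM, under the fold.

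On the lower side COX7B2 went from 11.4 to 2.13 CPM and COX7A1 from 80.2 to 22.9 CPM (19.8 to 26.4). UQCRB, a small subunit of complex III, went from 286 to 132 CPM, although within ending 2 the levels were 174 and 128 CPM. NDUFAF2, an assembly factor that binds a late intermediate of complex I, went from 17.5 to 8.54 CPM, and its ratio was alike within ending 2. NDUFB6 went from 628 to 333 CPM and ATP5F1E from 1692 to 852 CPM. Within ending 2 both were under the fold, with log2 ratios of -0.58 and -0.40. NDUFC1 went from 447 to 243 CPM over all cells but stood at 245 and 242 CPM within ending 2.

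Markers of some, but not all, other cell types were higher in oogenesis-like cells too. The 8 endothelial markers summed to 911 CPM there and 212 CPM in meiotic-like cells, with 1 of the 8 at 0 in oogenesis-like cells. The 9 macrophage markers summed to 441 and 32 CPM, again with 1 at 0 in oogenesis-like cells. Granulosa and pericyte sums were higher as well, at 256 against 135 CPM and 104 against 71.7 CPM. Lower were the sums for stroma (225 against 493 CPM), surface epithelium (103 against 172 CPM) and erythroid markers (3.32 against 9.10 CPM). COX8A stood at 156 CPM in endothelial-like and 296 CPM in macrophage-like cells, and ATP5F1D at 226 and 318 CPM. The part of these markers in the results for oogenesis-like cells was not tested.

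**Figure D4:**
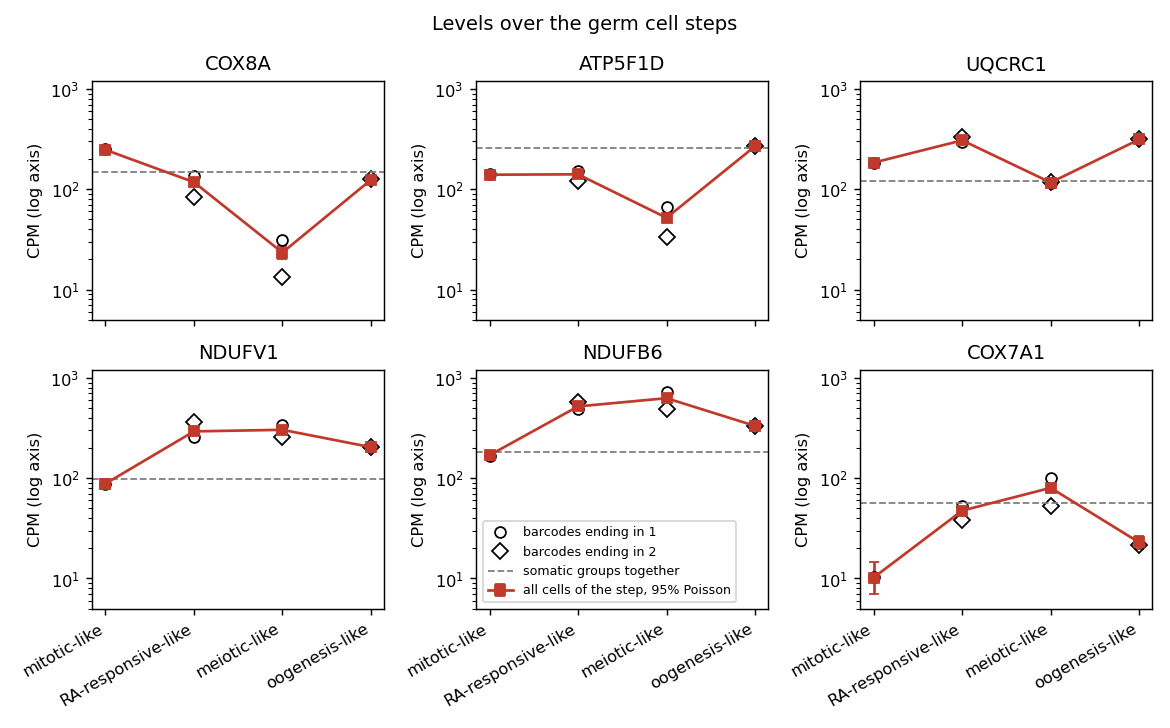
CPM on a log axis (vertical) over the 4 germ cell steps (horizontal) for 6 genes, with squares and 95% Poisson intervals for all cells of a step, circles and diamonds for barcodes ending in 1 and 2, and a dashed line for all somatic cells. COX8A, ATP5F1D and UQCRC1 have their lowest step level in meiotic-like cells (23.4, 51.9 and 117 CPM), while COX7A1 has its highest there (80.2 CPM).

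Counted gene by gene, 26 of the 58 genes had their highest step level in RA-responsive-like, 15 in meiotic-like, 12 in oogenesis-like and 5 in mitotic-like cells. The lowest step level was in mitotic-like cells for 34 genes, in meiotic-like for 15, in oogenesis-like for 6 and in RA-responsive-like for 3. Over all 11 groups the highest level lay in a germ cell step for 48 genes. This leaves 5 for granulosa-like, 2 for surface epithelium-like, 2 for macrophage-like and 1, NDUFA4L2, for pericyte-like cells. These counts, and the like counts for somatic groups below, were not made for all genes. Whether they are particular to the 58 genes was not tested. The median log2 ratio of all genes was 0.20 for germ cell-like over somatic and 0.40 for RA-responsive-like over mitotic-like cells.

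**Figure D5:**
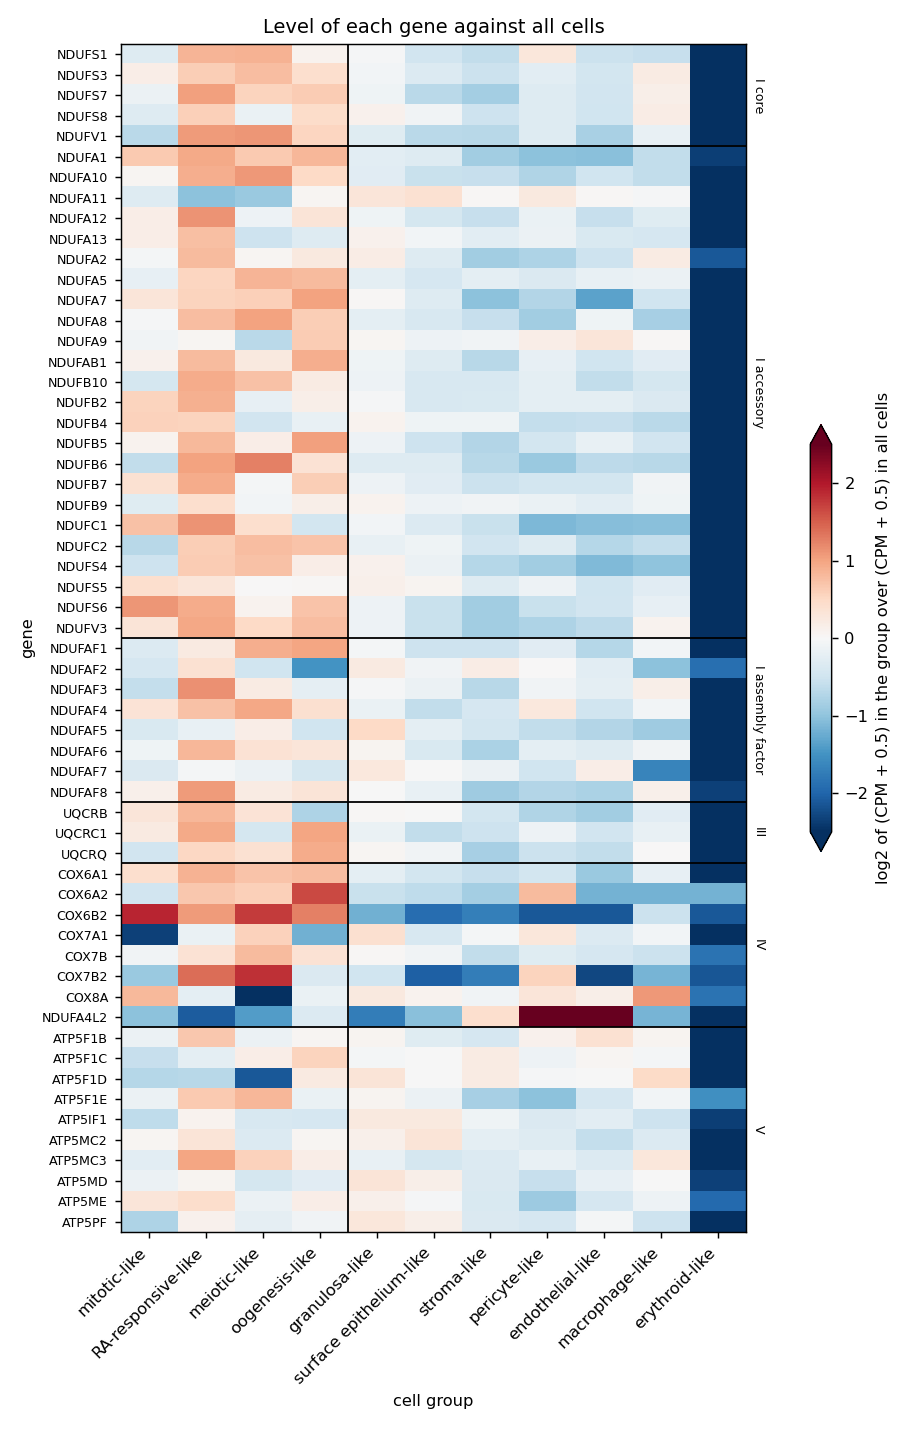
Log2 of the level in a group over that in all cells (colour, 0.5 CPM added to each) for the 58 genes (rows, by complex) in 11 cell groups (columns, germ cell steps left of the line). Most complex I rows are red in RA-responsive-like cells, COX8A is blue in meiotic-like cells, and the erythroid-like column is blue throughout.

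Among somatic groups, granulosa-like cells had the highest level of 29 genes and macrophage-like cells of 15, and erythroid-like cells the lowest of 55. By the ratio of highest to lowest group the leading genes were NDUFA4L2, NDUFS1, the largest core subunit of complex I, NDUFAF5, an assembly factor that modifies the core subunit NDUFS7, and ATP5F1B. NDUFS1 stood at 29.6 CPM in pericyte-like and 1.35 CPM in erythroid-like cells, NDUFAF5 at 45.4 CPM in granulosa-like and 2.42 CPM in erythroid-like cells, and ATP5F1B at 125 CPM in endothelial-like and 8.07 CPM in erythroid-like cells. Both NDUFS1 levels and the erythroid-like NDUFAF5 level rest on few UMIs. Pericyte-like and erythroid-like cells held 675313 and 3715167 nuclear-encoded UMIs in all. With erythroid-like cells set aside, which was chosen after seeing the data, the leading genes were NDUFA4L2, COX7B2, NDUFAF7, an assembly factor that methylates a core subunit, and NDUFAF5. The place of COX7B2 rests on 3 UMIs in pericyte-like and 1 UMI in endothelial-like cells, and that of NDUFAF7 on 7 UMIs in macrophage-like cells. NDUFAF7 then ran from 27.9 CPM in granulosa-like to 7.02 CPM in macrophage-like cells.

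Granulosa-like cells, the supporting cells that will surround the oocytes, were compared with stroma-like cells after the data were seen. The log2 ratio of the sums was 0.47 (0.46 to 0.48), 0.46 within each ending and 0.48 without the cluster with as many pericyte markers. Of 57 genes tested, 21 were at least 1.5 times higher in granulosa-like cells, where 33.0% of all 14908 genes tested were, and 1 was at least 1.5 times lower, where 13.4% were. The share of higher genes is thus near that of all genes. The single lower gene was NDUFA4L2. Past COX6B2 and COX7B2, which rest on few UMIs, the largest ratios were those of the complex I accessory subunits NDUFA2 (209 against 101 CPM) and NDUFA7 (250 against 121 CPM). ATP5F1C, the gamma subunit of complex V, was 202 CPM in granulosa-like and 238 CPM in stroma-like cells, and NDUFA5 did not differ beyond counting error (110 and 109 CPM).

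ATP5MC2 and ATP5MC3 encode the same c-ring protein of complex V, and their balance differed between groups. ATP5MC2 gave 69.4% (67.9 to 70.9) of their joint UMIs in mitotic-like, 53.7% (53.0 to 54.3) in RA-responsive-like, 49.1% (48.1 to 50.2) in meiotic-like and 62.8% (61.9 to 63.8) in oogenesis-like cells. In somatic groups the share ran from 54.3% in macrophage-like to 75.7% in surface epithelium-like cells. Meiotic-like cells differed by ending, with 43.2% under ending 1 and 57.3% under ending 2. Both genes have close relatives in the genome, and reads that match several copies could be assigned to either or dropped, so the shares are uncertain. ATP5MC1, another gene of this isoform set, had no row under its symbol, so the shares cover ATP5MC2 and ATP5MC3 only. The common partners of COX6B2, COX7A1 and NDUFA4L2 had no row under their symbols either, and no share was computed for them.

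The share of UMIs from the 13 mtDNA-encoded subunits depended on the barcode ending as well as on the germ cell step. They took 7.40% of all UMIs in mitotic-like, 13.1% in RA-responsive-like, 13.6% in meiotic-like and 18.7% in oogenesis-like cells. Within ending 1 the share was 7.38% in mitotic-like, 11.6% in RA-responsive-like and 12.8% in meiotic-like cells. Within ending 2 it was 16.1% in RA-responsive-like, 14.6% in meiotic-like and 18.8% in oogenesis-like cells, and the sum of the nuclear genes took the same order of down and then up, with 18046, 12636 and 15215 CPM. In granulosa-like and stroma-like cells they took 13.5% and 7.32%. The median log2 ratio of germ cell-like over somatic cells was 0.69 for them, with 7 of 13 at least 1.5 times higher. It was 0.40 with 2 of 13 higher within ending 1, where 34.5% of all genes were, and 0.80 with 10 of 13 higher within ending 2, where 40.0% were.

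Other lists of the pathway were counted in the same way. For germ cell-like over somatic cells, 38.6% of all genes were at least 1.5 times higher and 29.2% were lower. Of 23 assembly and biogenesis factors with other names, 13 were at least 1.5 times higher and 1 was lower in germ cell-like than in somatic cells, with a median log2 ratio of 0.62. Of 11 regulators of mitochondrial biogenesis, 3 were higher and 2 lower, both smaller shares than those of all genes. Of 14 glycolysis genes with a row, out of 21 listed, 1 was higher and 8 were lower, with a median of -0.75. The number lower depended on the ending, with 5 within ending 1 and 11 within ending 2. Their sums differed less, with a log2 ratio of -0.18 (2158 against 2443 CPM). In meiotic-like against RA-responsive-like cells 8 of the 14 glycolysis genes were lower and 3 higher, with sums of 1074 and 2833 CPM. Of all genes, 25.1% were lower and 28.8% higher there. The 2 complex II genes measured, which link the chain to the citric acid cycle, summed to 122 CPM in mitotic-like, 247 in RA-responsive-like, 348 in meiotic-like and 142 CPM in oogenesis-like cells.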

How the data were processed

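The assay was droplet-based single-cell RNA sequencing of 2 libraries. Per the labels and the study's methods, the authors aligned reads to Macaca_fascicularis_5.0 with Cell Ranger 3.0.2 and imported the counts into Seurat. The deposited table gives unnormalized UMI counts for both libraries together (18446 genes, 20967 cells, median 3756 UMIs per cell, no gene in under 3 cells and no cell under 200 genes). The 4675 cells over 3000 genes are still in it. Reads that match several gene copies are a limit of such counts, and 1 row of these gene families is not reported here.

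Clusters were computed with Seurat 5.3.0 (R 4.3.3) on 2000 variable genes without the members, the pathway lists, ribosomal protein and mtDNA genes (18 principal components, 20 neighbours, resolution 0.6), and germ cell-like cells again into 11 sub-clusters. A name needed 3 markers, each detected in 5% of the cells and, with 10 CPM added, 1.5 times higher than elsewhere, and went to the list with the most markers. Between lists with as many it went to the one with more of the cluster's 10 leading genes, and germ cell steps were withheld where a somatic list had as many. It was also withheld where another list led those genes, or from shallow clusters led by no marker. No doublet was removed. Levels are summed counts scaled to a common total of UMIs of nuclear-encoded genes (CPM), with exact Poisson intervals for levels and exact binomial intervals for ratios and shares (95%, counting error only), and 3 counts as the limit at 0. Ratios need 20 UMIs in both groups together and are counted past 1.5-fold. Values within a barcode ending need 50 cells. The ratio and its interval were tested on simulated data (scipy 1.17.1, numpy 2.4.6, pandas 2.3.3, scanpy 1.11.5 and matplotlib 3.10.9 under Python 3.11.15).

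Named genes are both forms of each isoform pair, the most abundant member of each complex, the 4 members with the largest and the 4 with the smallest ratio of each comparison, and the 4 most variable over somatic groups. NDUFA1, NDUFB6, NDUFC1, ATP5IF1 and the comparison of granulosa-like with stroma-like cells were added after their values were seen. Members and lists were chosen with earlier results of these data known. Gene symbols were matched to RefSeq (T2T-MFA8v1.1), whose build differs from that of the files, so no coordinates are given, and no protein or promoter sequence was used here.

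The alternatives were at most 3000 genes per cell, at most 10% mtDNA UMIs, resolutions 0.4 and 1.0, 30 components, members kept among the variable genes, removal of the 8% of cells with the highest Scrublet scores (which called 0 doublets), scaling by all UMIs or without ribosomal protein genes, means over cells, each barcode ending, and a minimum of 100 UMIs. Left out after the data were seen were the shallow sub-clusters (under 5000 UMIs), the erythroid-like cells and the granulosa-like cluster with as many pericyte markers.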

Additional observations from a re-analysis of the deposited data

How the results depend on the processing

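Values are log2 ratios unless stated. Of 16 summary results under their alternatives, 156 values lay close to those reported, 59 moved beyond counting error and 4 changed direction. Of 2406 ratios of single named genes, 1497 lay close, 878 moved beyond counting error and 31 changed direction.

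The summed level of germ cell-like over somatic cells, 0.59 as reported, was 0.82 with at most 3000 genes per cell, 0.75 with at most 10% mtDNA UMIs, 0.62 at resolution 0.4, with 30 components and with members kept among the variable genes, 0.64 at resolution 1.0, 0.63 without the highest doublet scores, 0.52 scaled by all UMIs, 0.55 scaled without ribosomal protein genes, 0.67 as a mean of single cells, 0.55 within ending 2, 0.54 without erythroid-like cells and 0.61 without the granulosa-like cluster with as many pericyte markers. RA-responsive-like over mitotic-like cells, 0.58 as reported, was 0.64 with at most 3000 genes (1 member at least 1.5 times lower in place of 3), 0.55 at both other resolutions, without the highest doublet scores and without the shallow sub-clusters, 0.56 with members kept, 0.49 scaled by all UMIs, 0.39 without ribosomal protein genes, 0.65 as a mean of cells and 0.63 within ending 1. Meiotic-like over RA-responsive-like cells, -0.32 as reported, was -0.13 with at most 3000 genes, -0.28 at resolution 0.4, with members kept and without the highest doublet scores, -0.29 at resolution 1.0, -0.30 with 30 components, -0.37 without ribosomal protein genes, -0.23 as a mean of cells, -0.18 and -0.51 within endings 1 and 2 and -0.40 without the shallow sub-clusters. Its 4 higher members became 2 with at most 10% mtDNA UMIs or at least 100 UMIs, and 1 within ending 2. Granulosa-like over stroma-like cells, 0.47 as reported, was 0.41 with at most 3000 genes and at resolution 1.0, 0.36 with at most 10% mtDNA UMIs, 0.42 at resolution 0.4, 0.43 with 30 components, with members kept and as a mean of cells, 0.45 without the highest doublet scores, 0.37 scaled by all UMIs, 0.44 without ribosomal protein genes, 0.46 within each ending and 0.48 without that granulosa-like cluster.

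Oogenesis-like over meiotic-like cells, -0.02 as reported, changed direction to 0.19 with at most 10% mtDNA UMIs, 0.037 scaled without ribosomal protein genes, 0.27 within ending 2 (with 6 in place of 10 lower members) and 0.089 without the shallow sub-clusters. It was -0.22 with at most 3000 genes, -0.029 with 30 components, -0.033 with members kept, -0.10 scaled by all UMIs and -0.16 as a mean of cells. The causes of these changes were not tested. NDUFA4L2 in pericyte-like cells, 161 CPM as reported, was 229 CPM with at most 3000 genes and 205 CPM as a mean of cells.

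Single genes changed direction as follows. With at most 3000 genes, germ cell-like over somatic cells gave 0.10 for ATP5IF1 and 0.24 for COX7A1, meiotic-like over RA-responsive-like 0.10 for NDUFS5 and 0.25 for UQCRQ, and oogenesis-like over meiotic-like -0.14 for UQCRQ, -0.086 for NDUFA2, -0.091 for NDUFA7, -0.33 for NDUFA1 and -0.12 for COX6A1. With at most 10% mtDNA UMIs, germ cell-like over somatic gave -0.13 for ATP5F1C, 0.089 for COX8A, 0.15 for NDUFAF7 and 0.12 for NDUFAF5, oogenesis-like over meiotic-like 0.18 for NDUFV1, and granulosa-like over stroma-like -0.31 for ATP5F1D and -0.0069 for NDUFA13. Scaled by all UMIs, ATP5F1C was -0.013 in germ cell-like over somatic and COX6A1 -0.033 in oogenesis-like over meiotic-like cells. As a mean of cells, COX7A1 was 0.18 in germ cell-like over somatic, and NDUFA2 -0.12 and NDUFA1 -0.14 in oogenesis-like over meiotic-like cells. Without the highest doublet scores NDUFA4L2 was -0.18 in oogenesis-like over meiotic-like cells, and in granulosa-like over stroma-like cells ATP5MC3 was -0.00076 at resolution 1.0 and ATP5F1D -0.036 without the granulosa-like cluster with as many pericyte markers. Within ending 1, meiotic-like over RA-responsive-like gave 0.059 for NDUFS5 and 0.042 for UQCRQ, and granulosa-like over stroma-like -0.24 for ATP5F1D. Within ending 2, meiotic-like over RA-responsive-like gave -0.11 for COX7B2 and -0.21 for NDUFB6, oogenesis-like over meiotic-like 0.14 for COX7B, and granulosa-like over stroma-like -0.048 for ATP5MC3.

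The planned share of NDUFA4L2 in the UMIs of NDUFA4 and NDUFA4L2 was not run, since NDUFA4 has no row under that symbol. No paired analysis was possible because the table holds 1 library per stage and its columns carry no replicate number. Depth limits the 4 genes under 10 CPM most, with 1 to 26 UMIs of COX6A2 in a germ cell step.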

Other observations

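One cluster of 1675 cells, 1666 of them under ending 2, stayed unnamed. It had 49.2% mtDNA-encoded UMIs, against at most 18.7% in any named group, and a median of 1779 UMIs per cell. The 58 nuclear genes summed to 11007 CPM (10863 to 11152) in it, between surface epithelium-like and macrophage-like cells. COX8A stood at 132 CPM, ATP5F1D at 271 CPM and NDUFA4L2 at 1.97 CPM there, and granulosa markers summed to 1525 CPM, against 1453 CPM in granulosa-like cells.

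Of the 11 germ cell-like sub-clusters, 4 had no step name. Their sums of the 58 genes were 17618, 14862, 12594 and 16582 CPM. The first pair were shallow, with medians of 741 and 1104 UMIs per cell, and the last pair deep, with medians of 21898 and 21736 UMIs. COX8A ran from 88.6 to 211 CPM in the 4, above the 17.1 and 41.4 CPM of the meiotic-like sub-clusters. COX7B2 stood at 17.6 CPM in the sub-cluster of 115 cells with 52 of them under ending 2.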
